A study of Mus musculus with 620 samples.

Results

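Kidney and liver of the same 8 young control mice were compared. The rule took the 16 libraries that the labels place in the LT_Y_ctrl group with Kidney or Liver as the tissue, 8 of each, out of 620 libraries in the series. The 8 animals are numbered A51 to A58, and each gave 1 kidney and 1 liver library, so that the tissues were compared within animals. The series measured poly(A) RNA by bulk sequencing in many tissues of young and aged mice, some of them given the GLP-1 receptor agonist exenatide or the mTOR inhibitor rapamycin. The labels call these 8 animals controls of the LT cohort and give neither their strain, sex and age nor what controls were given. No genetic change is named for them, and the libraries of treated and aged mice were not used. Each library holds RNA of whole tissue, so that fewer cells of a type and less RNA per cell cannot be told apart.

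Kidney and liver share much of their chemistry: both make glucose, oxidise fatty acids, break down amino acids and clear drugs and other foreign compounds. The liver draws solutes from portal blood, secretes bile and plasma proteins and turns ammonia into urea. The kidney filters plasma and recovers what is worth keeping along the nephron, first through sodium-coupled carriers and endocytic receptors in the proximal tubule, then through channels and exchangers in the loop, the distal tubule and the collecting duct. Hepatocytes and proximal tubule cells both use the nuclear receptor HNF4A to run many of these genes.

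Promoters of 3 genes are shown because they hold letters of the type this shared factor is known to bind; binding was not measured here. They stand in front of a gene at least 4-fold higher in liver, a gene higher in liver by under 4-fold and a gene at least 4-fold higher in kidney. They are the 250 bases before a transcription start in RefSeq's annotation of GRCm38.p6, written 5′ to 3′ on the gene's own strand. The count files use GRCm39 and give gene symbols only, so that the positions below come from RefSeq. Capitals mark every match to TGNACTTTG, letters of the HNF4 type, with either strand counted. Cyp8b1, the bile acid 12α-hydroxylase, was a liver gene here (chr9:121916306-121916555, minus strand, 2 matches). Agxt2, a mitochondrial aminotransferase, was higher in liver by under 4-fold (chr15:10358283-10358532, plus strand, 1 match); the table holds 2 starts for it, and the window of the other, chr15:10358329-10358578, also has 1 match. Lrp2, the tubule's endocytic receptor megalin, was a kidney gene (chr2:69586030-69586279, minus strand, 1 match).
Cyp8b1: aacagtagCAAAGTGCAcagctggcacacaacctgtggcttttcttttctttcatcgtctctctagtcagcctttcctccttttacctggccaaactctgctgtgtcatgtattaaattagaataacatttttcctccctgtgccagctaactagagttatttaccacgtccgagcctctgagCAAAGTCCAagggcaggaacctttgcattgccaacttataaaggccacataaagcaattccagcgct
Agxt2: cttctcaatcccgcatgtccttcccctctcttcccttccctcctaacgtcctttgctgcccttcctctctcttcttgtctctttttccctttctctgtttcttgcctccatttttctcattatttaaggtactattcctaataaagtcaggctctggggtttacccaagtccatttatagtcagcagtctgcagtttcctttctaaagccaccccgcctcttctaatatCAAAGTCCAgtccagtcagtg
Lrp2: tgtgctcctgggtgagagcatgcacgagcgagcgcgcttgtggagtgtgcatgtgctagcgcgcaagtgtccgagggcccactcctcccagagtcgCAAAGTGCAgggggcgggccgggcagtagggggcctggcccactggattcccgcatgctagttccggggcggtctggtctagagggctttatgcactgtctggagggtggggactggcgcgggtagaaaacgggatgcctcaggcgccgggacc

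Over all 32851 promoters of the table, 1.19% held the HNF4 letters in these 250 bases. The share was 3.75% (53 of 1414 promoters) for genes at least 4-fold higher in liver, 0.929% (21 of 2260) for genes at least 4-fold higher in kidney and 0.961% (115 of 11972) for the other tested genes. Promoters of gene copies such as the Cyp2c cluster repeat each other's sequence, so these shares are descriptions of letters and carry no test. Of the 1000 genes on the lists used below, 773 had a promoter in the table.

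Libraries held 23315718 to 27868848 counts, with 19590 to 20069 genes detected in a kidney and 17990 to 18373 in a liver. The liver spent 15.9 to 19.8% of its counts on its 10 largest genes and the kidney 8.54 to 10.3%. Levels are given as CPM, each gene's counts relative to its library's total, scaled by TMM, a normalisation that sets the middle of the genes level between libraries. Its factors were 1.24 to 1.35 for kidneys and 0.69 to 0.81 for livers. Of 24850 genes in the table, 15577 had enough counts to be tested. With edgeR's quasi-likelihood test, the animal as a block and Benjamini-Hochberg adjustment over these genes, 72.3% differed at an adjusted p under 0.05: 5895 were higher in kidney (37.8%) and 5361 in liver (34.4%). Since most genes passed, members of each list are counted where they also differed by at least 4-fold, which 2322 genes (14.9%) did toward kidney and 1435 (9.21%) toward liver. The median log2 fold change over all tested genes, kidney minus liver, was 0.038. Scaling by total counts alone moves that median by 0.752 toward kidney and gives 10254 genes called higher in kidney and 2491 in liver, so that small differences depend on the scaling and are marked where they flip. All livers and 3 kidneys were sequenced in batch 3 and the other 5 kidneys in batch 1. The 3 animals with both libraries in batch 3 gave 2460 genes at least 4-fold higher in kidney and 1499 in liver, and the 5 animals with the kidney in batch 1 gave 2453 and 1491.

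Markers of hepatocytes and of nephron cells matched the tissue labels, while those of cholangiocytes, a liver cell type, were mostly higher in kidney. The 5 cholangiocyte markers (Krt19, Epcam, Sox9, Cftr and Spp1) summed to 354.0 to 630.4 CPM in kidneys and 50.9 to 206.9 CPM in livers. Which kidney cells made them cannot be told from whole tissue, so they do not measure cholangiocytes in this comparison. Of these 5, 3 were at least 4-fold higher in kidney and 1 in liver. The 5 hepatocyte markers summed to 109600 to 141300 CPM in livers and 55.6 to 118.2 CPM in kidneys, with albumin (Alb) at 5.66 to 15.3 CPM (median 11.2) in kidney and 88739.7 to 119162 CPM (median 97636) in liver. The 5 markers of the loop, distal tubule and collecting duct summed to 3480 to 5712 CPM in kidneys and 0 to 0.314 CPM in livers, the 5 proximal tubule markers to 11940 to 14000 and 1577 to 2667 CPM (7616 to 9718 and 1.76 to 2.79 CPM without Slc27a2, an acyl-CoA synthetase of both organs), and the 5 podocyte markers to 253.2 to 415.2 and 11.9 to 33.9 CPM. Kupffer cell and macrophage markers summed to 249.3 to 750.9 CPM in livers and 3.08 to 5.74 in kidneys, where Clec4f and Vsig4 had no count. Adgre1 (mean 3.58 CPM) made up most of the kidney sum. As the list holds Kupffer cell markers, its gap does not measure kidney macrophages at large. General endothelial markers summed to 179.8 to 247.5 CPM in kidneys and 134.2 to 207.9 in livers, with overlap. As shares of counts they took 0.0229 to 0.03075% and 0.009309 to 0.01676%, without overlap. The 5 adipocyte markers, of which 1 had enough counts to be tested, summed to 0.0316 to 428.6 CPM over the kidneys and 0.0475 to 1.71 over the livers. The kidneys of A58 and A56 stood apart: Ucp1, the uncoupling protein of brown fat, was at 272 CPM in the kidney of A58, 20.9 in A56, 3.11 in A55, 0.193 in A51 and 0 in the other 4. Adipoq, the adipocyte hormone adiponectin, was at 19.9 CPM in A58 and 6.92 in A56, against 0 to 3.08 in the other 6. Haemoglobin Hbb-bs was at 178 CPM in the kidney of A53 and at 8.17 to 30.6 CPM in the other 7. Markers of adrenal cortex and pancreatic acinar cells summed to at most 5.03 and 1.77 CPM in any library.

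Genes with the widest gaps between the tissues included secreted proteins and carriers. Among genes of at least 100 CPM, the 5 largest folds toward kidney were those of Kap, Slc34a1, Mep1a, Umod and Slc12a1. Kap, an androgen-responsive protein of the proximal tubule, was at 11465 to 20352 CPM (median 17654) in kidneys and had no count in any liver. Against a floor of 3 counts over the 8 livers (0.019 CPM), Kap was at least 897108-fold higher in kidney, and Mep1a, a brush border protease, at least 78017-fold (1327 to 1628 CPM with median 1516). Toward liver the 5 largest were Mup20 and Mup3, major urinary proteins that carry pheromones, Uox, Ahsg and Serpina3k (log2 -18.88 ± 0.40; -19.70 without A57). Ahsg, the plasma glycoprotein fetuin-A, was at 6759.8 to 11576 CPM (median 9444) in livers and had 2 counts over the 8 kidneys. The kidney's most abundant transcript of the lists was Gpx3, the glutathione peroxidase secreted into plasma, at 17585 to 23956 CPM (median 19415) against 5.9987 to 11.6 CPM (median 9.03) in liver (log2 11.20 ± 0.22; such values are log2 fold changes, kidney minus liver ± SE). Mup and Serpina3 genes have close copies, so their reads may be split between them. For all of these genes the 2 tissues did not overlap, as for most genes named below.

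**Figure D1:**
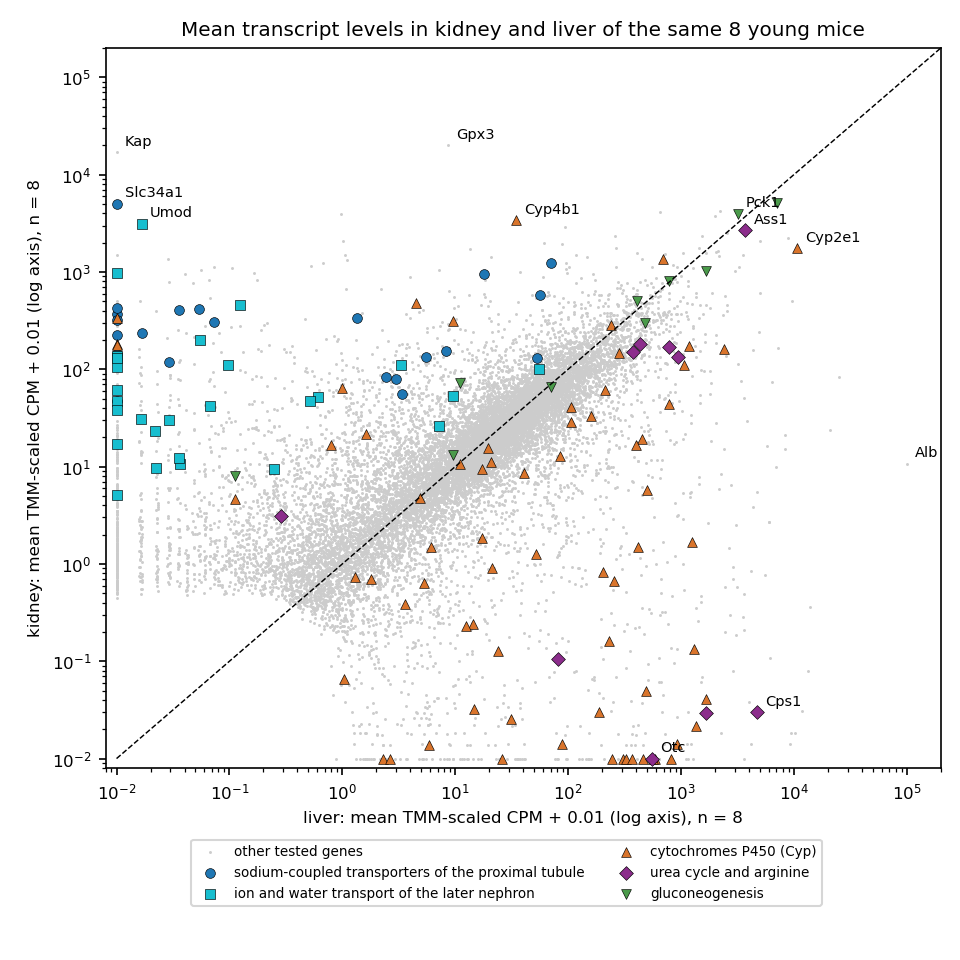
Mean TMM-scaled CPM of the 15577 tested genes in liver (x axis, log) and kidney (y axis, log), with 0.01 added to each; coloured points are members of 5 lists and the dashed line marks equal levels. Carriers of the nephron lie far above the line, most cytochromes P450 below it, and the gluconeogenesis genes Pck1 and Pcx near it.

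Sodium-coupled carriers of the proximal tubule, which pull phosphate, glucose, amino acids and organic acids out of the filtrate, formed a one-sided kidney group. Of 22 tested, 21 were at least 4-fold higher in kidney and 0 in liver, against 14.9% and 9.21% of all genes, and their median log2 fold change was 12.22 (11.72 with genes of at most 3 counts at their bound). Slc34a1, the main renal phosphate carrier, was at 4499.7 to 6401 CPM (median 4865) in kidneys with no count in any liver. Slc5a12, a lactate carrier, was at 261 to 496 CPM (median 365) and Slc6a18, a carrier of neutral amino acids, at 374 to 470.1 CPM (median 434), both again with no count in liver. Slc5a2, the glucose carrier SGLT2 that gliflozin drugs block, was at 309.9 to 379 CPM (median 334) against 0.746 to 1.81 CPM (median 1.37; log2 7.997 ± 0.20). The basolateral bicarbonate carrier Slc4a4 was at 903 to 1505 CPM (median 1243) against 59.3 to 88.2 CPM (median 69.3; log2 4.12 ± 0.16). Slc3a1, the heavy chain of the cystine carrier, was at 540.1 to 605 CPM (median 582) against 32.7 to 119 CPM (median 47.9; log2 3.47 ± 0.21). Every kidney lay above every liver for these genes. The member under 4-fold was Slc3a2, the chaperone chain of many amino acid carriers that most cells make (106 to 152 CPM with median 135 against 30.005 to 68.5 CPM with median 52.9, log2 1.33 ± 0.15). With edgeR, adjusted p was at most 2.41e-06 for these genes.

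Ion and water transport of the later nephron was as one-sided: of 27 genes tested, 26 were at least 4-fold higher in kidney and 0 in liver, with a median log2 fold change of 10.32. Umod, uromodulin of the thick ascending limb, was at 2400.2 to 4040.5 CPM (median 3100.0) with 1 count over the 8 livers. Slc12a1, the loop's salt carrier and the target of furosemide, was at 691 to 1134 CPM (median 1005) with no count in liver. Slc12a3, the thiazide-sensitive carrier of the distal tubule, was at 294 to 604 CPM (median 467) against 0 to 0.313 CPM (median 0.0518). Kcnj1, the potassium channel that recycles potassium beside Slc12a1, was at 82.4 to 198 CPM (median 135) with none in liver. Aqp2, the vasopressin-regulated water channel, was at 81.6 to 209 CPM (median 132) with none in liver. Within kidneys Aqp2 was at 209 CPM in A52 and 199 in A56, and at 81.6 to 82.5 CPM in A54, A57 and A58. The exception was Scnn1a, the alpha subunit of the epithelial sodium channel, which differed by under 4-fold (88.7 to 115 CPM with median 99.1 against 24.7 to 81.5 CPM with median 57.5, log2 0.93 ± 0.19). Its partner Scnn1g was at 24.9 to 36.5 CPM (median 30.2) with 1 count over all livers. With edgeR, adjusted p was at most 6.67e-04 for these genes.

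Aquaporins split by organ. Of 9 tested, 6 were at least 4-fold higher in kidney and 2 in liver. Aqp1, the water channel of proximal tubule and thin limb, was at 669 to 915 CPM (median 831) against 105 to 219 CPM (median 172; log2 2.29 ± 0.14). Aqp9, which lets glycerol into hepatocytes, was at 517 to 715 CPM (median 662) in liver and 0 to 0.128 CPM (median 0.0326) in kidney (log2 -13.48 ± 0.32). Aqp8 was at 38.5 to 650.2 CPM (median 132) in liver, where A55 was highest, and 0.0632 to 0.481 CPM (median 0.219) in kidney. Aqp11, an intracellular channel, was nearly level, with 32.4 to 47.2 CPM (median 38.033) against 46.5 to 62.4 CPM (median 53.8; log2 -0.47 ± 0.11 with TMM, 0.29 with total counts only, and -0.34 and no call in the 5 animals with the kidney in batch 1). The proton pump of the V type, which acidifies vesicles in all cells and urine in intercalated cells, had 8 of 22 subunit genes, a pseudogene among the 22, at least 4-fold higher in kidney and 0 in liver. Forms of the intercalated cell were among them: Atp6v1b1 was at 59.8 to 76.7 CPM (median 64.4) with 1 count over all livers, Atp6v0a4 at 212 to 328 CPM (median 243) against 0 to 0.427 CPM (median 0.151), and Atp6v1g3 at 9.41 to 21.5 CPM (median 18.2) with none. The widely used subunit Atp6v0d1 was at 88.1 to 116 CPM (median 99.3) against 75.4 to 139.5 CPM (median 103), with no call (adjusted p = 0.769 with edgeR; the log2 fold change was -0.04, and 0.72 with total counts only). Called genes here reached an adjusted p of at most 0.00223.

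All 5 endocytic receptor genes of the proximal tubule were at least 4-fold higher in kidney. Lrp2, whose promoter is shown above, was at 1643 to 2476 CPM (median 2047) against 0.708 to 1.28 CPM (median 1.03; log2 10.98 ± 0.18). Its partner cubilin (Cubn), which binds albumin and the B12 carrier, was at 418 to 682 CPM (median 548) against 0 to 0.147 CPM (median 0.0518; log2 13.10 ± 0.32). The folate receptor Folr1 was at 235 to 307 CPM (median 276) against 0 to 0.373 CPM (median 0.076). Dab2, a clathrin adaptor used in other cells as well, was closest, at 445 to 564 CPM (median 519.7) against 15.1 to 24.044 CPM (median 20.2; log2 4.66 ± 0.15). Of 8 glucose carriers tested, 3 were at least 4-fold higher in kidney and 1 in liver (0 in liver with total counts only). Slc2a2, the two-way glucose carrier GLUT2 of both organs, was higher in liver by less than 4-fold (412 to 646 CPM with median 531 against 133 to 217 CPM with median 163, log2 -1.67 ± 0.15), whereas its tubule partner Slc5a2 was a kidney gene. Slc2a9, a urate carrier, was at 47.3 to 105 CPM (median 71.6) in liver and 11.9 to 19.3 CPM (median 16.4) in kidney (log2 -2.18 ± 0.15), and was under 4-fold with total counts only (-1.43). The fructose carrier Slc2a5 was at 95.8 to 172 CPM (median 103) in kidney and 8.68 to 26.035 CPM (median 18.1) in liver (log2 2.70 ± 0.19). The glucose 6-phosphate carrier Slc37a4 was at 245 to 327 CPM (median 315) against 342 to 818 CPM (median 463; log2 -0.62 ± 0.13 with TMM and 0.13 with total counts only). With edgeR, the calls in this group had adjusted p-values up to 7.16e-04.

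Carriers of bile salts and organic ions were split evenly: of 31 tested, 10 were at least 4-fold higher in kidney and 10 in liver. On the liver side stood the sinusoidal uptake carriers and the bile canalicular pumps. Slc10a1, the sodium bile salt carrier NTCP, was at 784 to 1406 CPM (median 1063) in liver and 0.35 to 0.77 CPM (median 0.504) in kidney (log2 -10.94 ± 0.25). Slco1b2, which takes up statins and bilirubin conjugates, was at 1099.9 to 2447 CPM (median 1419) against 0 to 0.152 CPM (median 0.0475; log2 -14.53 ± 0.42). Abcb11, the bile salt export pump, was at 365 to 556 CPM (median 476) with 1 count over all kidneys. The sterol exporters Abcg5 and Abcg8 were at 127 to 238 CPM (median 146) and 132 to 281 CPM (median 196) in liver against at most 0.0948 and 0.441 CPM in any kidney. On the kidney side stood the basolateral organic anion carrier Slc22a6 (OAT1), at 794 to 1132 CPM (median 930.2) with no count in liver. Its relative Slc22a8 (OAT3) was at 307 to 445 CPM (median 409.8) with 2 counts over all livers. Slc22a12, the urate reabsorber URAT1, was at 1149 to 1574 CPM (median 1364) with 3 counts over all livers. Slco4c1 was at 13.5 to 26.8 CPM (median 23.2) and Slc51a, a chain of the basolateral bile salt exporter, at 51.9 to 153 CPM (median 74.6), both with none in liver. The largest adjusted p among these calls was 1.24e-07.

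Of the carriers described next, Abcc2 alone did not pass the test, and Slc10a2, Slc22a7 and Abcg2 were higher in kidney, by under 4-fold with TMM. Abcc2, an exporter of glucuronides into bile and urine, was at 244 to 336 CPM (median 294) and 111 to 592 CPM (median 332), with no call (adjusted p = 0.764). Its log2 fold change was -0.08 with TMM, 0.67 with total counts only and -0.42 in the 3 pairs of batch 3, and the last 2 passed the test. Slc10a2, the apical sodium bile salt carrier, was at 43.3 to 76.2 CPM (median 58.2) in kidney and 20.3 to 64.3 CPM (median 33.7) in liver (log2 0.75 ± 0.19). The anion carrier Slc22a7 (OAT2) was at 79.3 to 195 CPM (median 138) and 18.4 to 89.4 CPM (median 60.2; log2 1.37 ± 0.29). The drug exporter Abcg2 was at 319.6 to 430.0 CPM (median 404) and 85.4 to 139 CPM (median 116; log2 1.79 ± 0.12). The organic cation carrier Slc22a2 differed more, at 259 to 336 CPM (median 308) in kidney and 0 to 0.44 CPM (median 0.179) in liver (log2 10.52 ± 0.31). Levels of Abcc2, Slc10a2 and Slc22a7 overlapped between the tissues and those of Slc22a2 and Abcg2 did not. Among the called genes, adjusted p was at most 0.00323.

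The solute carrier family leaned to kidney. Of 374 Slc symbols in the count table, 307 passed the filter on low counts, of which 105 were at least 4-fold higher in kidney and 33 in liver. Without 9 antisense, pseudogene and adaptor symbols, the counts were 104 and 33 of 301. The 374 took 5.07 to 5.37% of kidney counts and 1.80 to 2.39% of liver counts. Slc22, the organic ion carriers, had 13 of 22 toward kidney and 1 toward liver. Slc5 had 8 of 9 toward kidney and 0 toward liver, and Slc6 8 and 2 of 13. The mitochondrial carriers, Slc25, were near even, with 3 of 41 in each direction. Among carriers with the largest liver levels were Slc38a3, a glutamine carrier (2246 to 4912 CPM with median 3421 against 26.9 to 103 CPM with median 79.9, log2 -5.54 ± 0.25), Slc38a4, an amino acid carrier (1303 to 2162 CPM with median 1675 against 2.02 to 3.58 CPM with median 2.42, log2 -9.37 ± 0.22), and Slc25a47, a mitochondrial carrier (558 to 1516 CPM with median 1017 against 0.607 to 1.48 CPM with median 0.979, log2 -10.02 ± 0.25). Slc25a4, the adenine nucleotide carrier of muscle and heart, went the other way (157 to 213 CPM with median 183 against 7.35 to 14.2 CPM with median 10.4, log2 4.14 ± 0.16). Slc7a13, an acidic amino acid carrier of the late proximal tubule, was at 766 to 1081 CPM (median 989.9) in kidney and 0 to 0.142 CPM (median 0) in liver, with 5 counts in all livers together (log2 14.68 ± 0.38; 15.63 without A52). The Slco family had 4 of 9 toward kidney and 3 toward liver, and the ABC family 6 of 41 and 12 (10 toward kidney with total counts only). Abca13 was at 78.1 to 176 CPM (median 133) in kidney with 1 count over all livers, and Abca3, a lipid pump, at 428 to 706 CPM (median 577) against 35.4 to 113 CPM (median 73.9; log2 2.95 ± 0.21). The genes called here had an adjusted p of at most 1.55e-08.

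**Figure D2:**
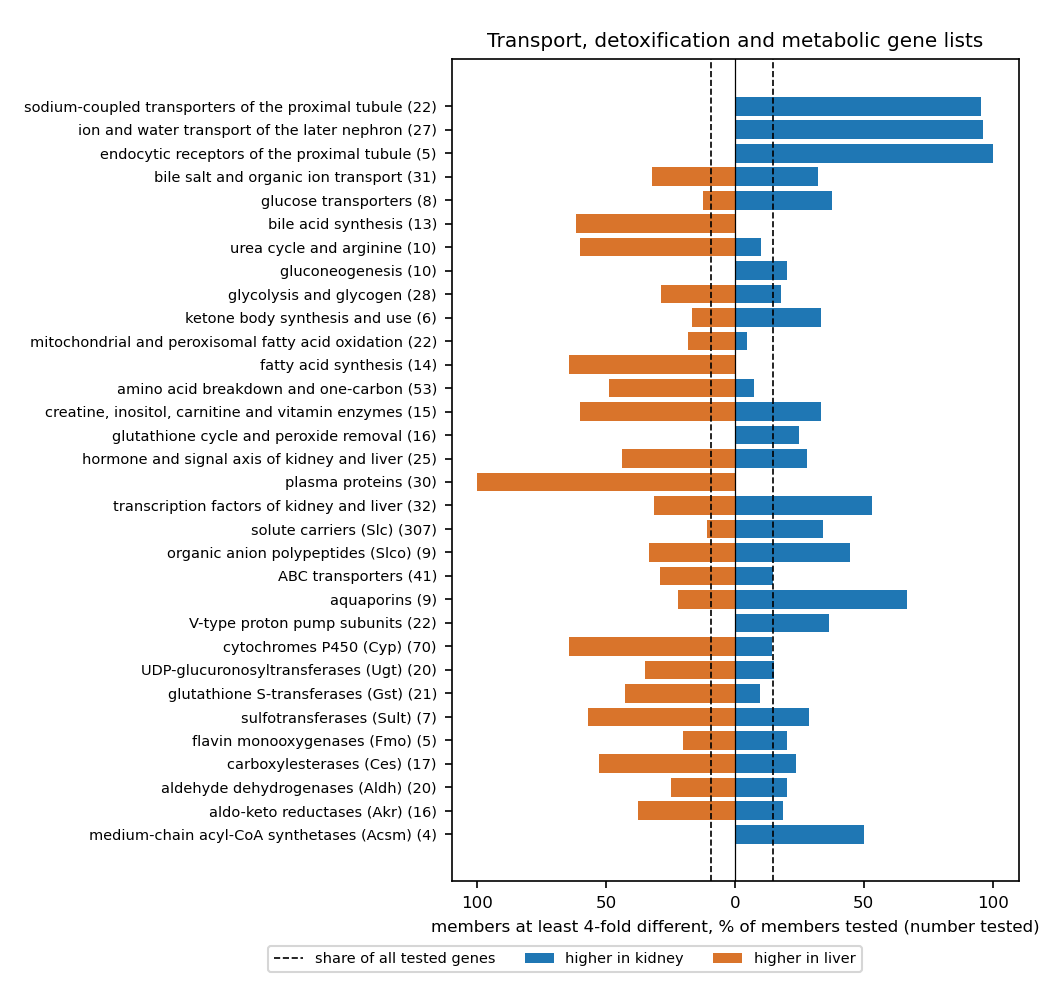
Share of the tested members of each list that were at least 4-fold different at an adjusted p under 0.05, in percent, to the right for higher in kidney and to the left for higher in liver; dashed lines mark the shares over all genes, 14.9% and 9.21%. Nephron carriers and endocytic receptors lie to the right, and plasma proteins, P450s, bile acid and fatty acid synthesis to the left. Gluconeogenesis has 2 of its 10 genes to the right and 0 to the left.

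Cytochromes P450, the oxidases of drugs, steroids and fatty acids, leaned to liver: of 89 Cyp symbols matched in the count table, 70 passed the filter on low counts, with 45 at least 4-fold higher in liver and 10 in kidney. Without 4 pseudogene and antisense symbols the counts were 44 and 10 of 69. All 13 Cyp2c and all 4 Cyp3a genes tested were on the liver side. Cyp2c29 was at 870.2 to 1685 CPM (median 1436) in liver with 3 counts over all kidneys. Cyp3a11, the mouse relative of human CYP3A4, was at 1120.4 to 2938 CPM (median 1434) with 0 to 0.091 CPM (median 0.0303) in kidney. Cyp1a2, which clears caffeine, was at 285 to 1726 CPM (median 798) with 1 count over all kidneys. Cyp2e1, the alcohol-inducible form, was the largest P450 of the liver at 7771 to 12934 CPM (median 10682) and still reached 1320.4 to 2134 CPM (median 1744) in kidney (log2 -2.57 ± 0.13). The 10 of 70 on the kidney side stood near the 14.9% of all genes, and the 45 on the liver side above the 9.21%. Cyp4b1 was at 3107 to 3695 CPM (median 3333) in kidney and 28.4 to 47.8 CPM (median 32.2) in liver (log2 6.64 ± 0.17). Cyp2j13 and Cyp2j11, of an arachidonate-oxidising subfamily, were at 269 to 410.3 CPM (median 326) and 158 to 213 CPM (median 174) with no count in liver. Cyp2j5 of the same subfamily was high in both, at 1259.7 to 1459.9 CPM (median 1384) and 550.5 to 1064 CPM (median 649; log2 0.99 ± 0.13). Cyp2a4, a testosterone 15α-hydroxylase, was at 360.4 to 621 CPM (median 469) in kidney and 0.149 to 26.6 CPM (median 0.845) in liver, where A52 was the highest (log2 8.39 ± 0.79; 9.003 without A52). Its near copy Cyp2a5 was at 497 to 1837 CPM (median 1213) in liver and 103 to 294 CPM (median 148) in kidney (log2 -2.68 ± 0.20). In the fatty acid hydroxylases of Cyp4a, Cyp4a10 did not pass the test (176 to 415 CPM with median 266 against 113 to 369.6 CPM with median 244, adjusted p = 0.175). Its log2 fold change was 1.12 and called with total counts only, and 0.55 and called without A53. Cyp4a14 was lower in kidney (11.009 to 68.6 CPM with median 25.5 against 13.8 to 366 CPM with median 141, log2 -1.97 ± 0.47) with overlap, a call lost within either set of animals by batch (-2.55 and -1.56). Cyp2a, Cyp2c, Cyp2d and Cyp4a genes have close copies, so single levels within them are uncertain. Called genes here reached an adjusted p of at most 0.0021.

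Conjugating enzymes had members on both sides. Over all genes, 14.9% were at least 4-fold higher in kidney and 9.21% in liver, and with TMM the kidney-side numbers of Ugt and Gst were near or below that share. Of 20 glucuronosyltransferases (Ugt), 7 were at least 4-fold higher in liver and 3 in kidney (6 in kidney with total counts only). Ugt2b1 was at 349 to 686 CPM (median 558) in liver with no count in kidney. Its relatives Ugt2b38 and Ugt2b37 were at 631 to 1037 CPM (median 796) and 69.4 to 333 CPM (median 207) in kidney against 4.05 to 36.8 CPM (median 20.4) and 0.209 to 3.54 CPM (median 1.03) in liver. Ugt3a2 was at 1368 to 1907 CPM (median 1493) against 342 to 486 CPM (median 408; log2 1.93 ± 0.13; 2.69, past 4-fold, with total counts only). The 9 Ugt1a genes share their last exons, and reads there cannot be assigned: 8 of them lay at means from 53.9 (Ugt1a8) to 58.1 CPM (Ugt1a6a) in kidney, and Ugt1a7c alone at 295 to 425 CPM (median 372). Ugt1a1, the bilirubin enzyme, was at 247 to 517 CPM (median 417) in liver. Of 7 sulfotransferases, 4 were at least 4-fold higher in liver, led by Sult2a8 (881 to 1641 CPM with median 1086, no count in kidney), and 2 in kidney. Sult1d1, the most abundant in kidney, was higher there by under 4-fold (501 to 722 CPM with median 574 against 95.2 to 306 CPM with median 161, log2 1.86 ± 0.14). Of 21 glutathione transferases, 9 were at least 4-fold higher in liver and 2 in kidney (4 in kidney in the 3 pairs of batch 3). Mgst1, the membrane form, was at 2804 to 5962 CPM (median 3382) against 41.7 to 66.2 CPM (median 45.8; log2 -6.15 ± 0.20). Gsta3 was at 1264 to 3895 CPM (median 1587) against 56.4 to 91.8 CPM (median 70.9; log2 -4.60 ± 0.18). Gstm1 was at 1048 to 1846 CPM (median 1495) against 342 to 538 CPM (median 452; log2 -1.68 ± 0.12). The kidney-sided pair was Gsta2 (102 to 207 CPM with median 138 against 4.26 to 50.99 CPM with median 15.954, log2 3.22 ± 0.30) and Gstm5 (65.8 to 86.2 CPM with median 77.7 against 8.14 to 23.9 CPM with median 9.88, log2 2.77 ± 0.17). With edgeR, the calls in this group had adjusted p-values up to 3.21e-07.

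Esterases, oxidoreductases and acyl-CoA synthetases also had members higher in each organ. Their numbers stand beside the same shares of all genes, 14.9% toward kidney and 9.21% toward liver. Of 17 carboxylesterase genes, a pseudogene among them, 9 were at least 4-fold higher in liver and 4 in kidney. Ces1c, secreted into mouse plasma, was at 2847 to 3578 CPM (median 3034) against 0 to 0.364 CPM (median 0.197). Ces2c was at 191 to 273 CPM (median 212) in kidney against 18.7 to 57.025 CPM (median 28.9) in liver (log2 2.71 ± 0.19). Ces1f was high in both (585 to 802 CPM with median 715 and 502 to 683 CPM with median 551, log2 0.32 ± 0.12) with overlap. With edgeR its call was lost without A51 (0.29, adjusted p = 0.0533) and in the 5 animals with the kidney in batch 1 (0.21, adjusted p = 0.274). Flavin monooxygenases gave 1 of 5 on each side, and 2 on the kidney side with total counts only. Fmo2 was at 389 to 581 CPM (median 491) in kidney and 11.5 to 61.5 CPM (median 35.7) in liver (log2 3.88 ± 0.23). Fmo5 was at 109 to 132 CPM (median 121) and 652 to 1208 CPM (median 837; log2 -2.87 ± 0.14). Of 20 aldehyde dehydrogenases, 5 were at least 4-fold higher in liver, among them Aldh1a1, a retinal dehydrogenase (674 to 1963 CPM with median 1098 against 4.3 to 6.55 CPM with median 5.07, log2 -7.75 ± 0.25), and Aldh2, the acetaldehyde enzyme (1008 to 3173 CPM with median 2635 against 343 to 585 CPM with median 450.1, log2 -2.45 ± 0.22), and 4 in kidney. With total counts only the liver number was 3. Of 16 aldo-keto reductases, 6 were on the liver side and 3 on the kidney side (6 on the kidney side with total counts only and 5 in the 3 pairs of batch 3). Akr1c6, a 17β-hydroxysteroid dehydrogenase, was at 1075 to 2926 CPM (median 1212) in liver against 0.0954 to 0.738 CPM (median 0.383). Its relative Akr1c21 was at 844 to 1459 CPM (median 1139) in kidney against 0 to 0.199 CPM (median 0). The Acsm enzymes, which activate benzoate and medium-chain acids for glycine conjugation, had Acsm2 at 3481 to 4398 CPM (median 3965) in kidney against 0.213 to 1.51 CPM (median 1.03) in liver (log2 12.08 ± 0.34), Acsm3 on the same side (log2 2.20 ± 0.16), and Acsm1 higher in liver by under 4-fold (log2 -1.66 ± 0.11). The largest adjusted p among these calls was 0.0249.

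Of 16 genes of the glutathione cycle and peroxide removal, 4 were at least 4-fold higher in kidney (Gpx3, Ggt1, Dpep1 and Nqo1) and 0 in liver. Ggt1, the surface enzyme that opens glutathione breakdown, was at 956 to 1361 CPM (median 1090.0) in kidney against 0 to 0.199 CPM (median 0.0788) in liver (log2 13.43 ± 0.31). Dpep1, the dipeptidase that follows it, was at 85.9 to 111 CPM (median 94.4) against 0.902 to 2.18 CPM (median 1.3; log2 6.15 ± 0.18). Anpep, an aminopeptidase of both brush border and canaliculus, did not pass the test (152 to 221 CPM with median 170.3 against 127 to 248 CPM with median 196, adjusted p = 0.682; -0.07 with TMM, 0.69 with total counts only and -0.37 in the 3 pairs of batch 3, the last 2 called). The synthesis enzymes differed less: Gss was at 179 to 269 CPM (median 224) against 53.4 to 101 CPM (median 71.2; log2 1.63 ± 0.15). Gclc was at 181 to 494 CPM (median 281) against 129.8 to 283 CPM (median 236) with overlap (log2 0.43 ± 0.14; 0.41 and no call in the 3 pairs of batch 3). Catalase (Cat) was higher in liver, at 2477 to 4159 CPM (median 3233) against 972 to 1332 CPM (median 1097; log2 -1.54 ± 0.13). The list summed to 24040 to 31570 CPM in kidneys and 7248 to 8855 CPM in livers, and in TMM-scaled CPM Gpx3 carried that difference. Without it the other 15 summed to 6285 to 7646 CPM in kidneys and 7241 to 8844 CPM in livers, with overlap. As shares of all counts, the other 15 took 0.82 to 0.95% in kidneys and 0.547 to 0.687% in livers, without overlap. Their direction thus depends on the scaling. Among the called genes, adjusted p was at most 0.0129.

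Bile acid synthesis was a liver program in its committed steps. Of 13 genes tested, 8 were at least 4-fold higher in liver and 0 in kidney. Cyp7a1, its rate-limiting enzyme, was at 66.8 to 453 CPM (median 207) in livers, lowest in A56 and highest in A52, with no count in any kidney, at least 20664-fold lower in kidney against a floor of 3 counts over the 8 kidneys (0.0119 CPM). Cyp8b1, whose promoter is shown above, was at 257 to 804 CPM (median 406) against 0 to 0.0954 CPM (median 0.0319). Baat, which joins bile acids to taurine, was at 247 to 389 CPM (median 273) against 0.578 to 1.37 CPM (median 0.859; log2 -8.43 ± 0.17). Steps shared with peroxisomal fatty acid breakdown were present in both: Amacr was at 236 to 336 CPM (median 298) in kidney and 199 to 294 CPM (median 237) in liver (log2 0.27 ± 0.11), a call lost when any 1 of A51, A52, A53, A54 or A58 was left out (0.25 to 0.29) and in the 5 animals with the kidney in batch 1 (0.18). Slc27a2, which activates long-chain fatty acids, was higher in kidney (4061 to 4585 CPM with median 4232 against 1575 to 2664 CPM with median 2285, log2 0.95 ± 0.12). The thioesterase Acot8 did not pass the test (15.6 to 21.6 CPM with median 18.5 against 12.9 to 22.6 CPM with median 18.6, adjusted p = 0.948; -0.01 with TMM and 0.74 with total counts only). The genes called here had an adjusted p of at most 0.0374.

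Genes of the urea cycle and arginine leaned to liver. Of 10 tested, 9 were called higher in liver and 1 in kidney. At least 4-fold higher were 6 in liver and 1 in kidney, against 9.21% and 14.9% of all genes. The mitochondrial entry steps were liver genes: Cps1, which fixes ammonia, was at 3673 to 5730.2 CPM (median 4914) in liver with 5 counts over all kidneys, and Otc at 428 to 666 CPM (median 549) with none. The middle enzyme was nearly level. Ass1, which joins citrulline to aspartate, was at 2293 to 2947 CPM (median 2721) in kidney and 2731 to 5111 CPM (median 3579.9) in liver with overlap (log2 -0.42 ± 0.13 with TMM, adjusted p = 0.0111; 0.33 with total counts only, so its direction depends on the scaling; -0.38 and no call in the 5 animals with the kidney in batch 1). Asl, the next step to arginine, was at 145 to 188 CPM (median 168) against 531 to 1387 CPM (median 720.4; log2 -2.13 ± 0.15). Arginase closed the cycle in liver: Arg1 was at 1292 to 2186 CPM (median 1727) in liver against 0 to 0.0963 CPM (median 0) in kidney (log2 -16.06 ± 0.37; -16.92 without A51). The mitochondrial Arg2 was at 1.97 to 3.79 CPM (median 3.04) in kidney against 0.147 to 0.533 CPM (median 0.233; log2 3.50 ± 0.26). Called genes here reached an adjusted p of at most 0.0111.

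Amino acid breakdown and one-carbon genes leaned to liver, with 26 of 53 tested at least 4-fold higher there and 4 in kidney. Tat, the tyrosine aminotransferase, was at 683 to 2406 CPM (median 995) in liver with 1 count over all kidneys. Tdo2, the first enzyme of tryptophan breakdown, was at 1027 to 2623 CPM (median 1419) against 0 to 0.136 CPM (median 0.045). Hal, the histidine lyase, was at 168 to 578 CPM (median 406) with 1 count over all kidneys. Methionine adenosyltransferase changed form, with Mat1a at 2935 to 4747 CPM (median 4188) in liver against 0 to 0.136 CPM (median 0) in kidney (log2 -16.89 ± 0.45; -17.77 without A57). Mat2a was at 378 to 624 CPM (median 473) in kidney against 80.6 to 146 CPM (median 107) in liver (log2 2.13 ± 0.13). Dao, the D-amino acid oxidase, was at 249 to 322 CPM (median 290.0) in kidney with no count in liver. The hydroxyacid oxidases parted fully: Hao1, the glycolate oxidase, was at 250.1 to 382 CPM (median 327) in liver with 1 count over all kidneys. Hao2 was at 165 to 328 CPM (median 235) in kidney against 0 to 0.213 CPM (median 0.075) in liver. Agxt, the peroxisomal aminotransferase that clears glyoxylate, was at 286 to 688 CPM (median 350.0) in liver with 2 counts over all kidneys. Agxt2 was at 83.2 to 128 CPM (median 112) in kidney and 170.4 to 264 CPM (median 235) in liver (log2 -1.03 ± 0.12). Csad, of taurine synthesis, did not pass the test (213 to 299.9 CPM with median 274 against 179 to 383 CPM with median 279, 0.00, adjusted p = 0.992; 0.76 and called with total counts only). Cdo1, the step before it, was at 1087 to 2937 CPM (median 1357) in liver against 76.981 to 123 CPM (median 99.6; log2 -3.88 ± 0.16). With edgeR, the calls in this group had adjusted p-values up to 3.45e-06.

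Several pathways had successive steps on opposite sides. In creatine synthesis the first enzyme, Gatm, was at 463 to 756 CPM (median 548) in kidney and 7.93 to 16.3 CPM (median 13.5) in liver (log2 5.46 ± 0.14). The second, Gamt, was at 12.7 to 20.9 CPM (median 16.045) and 184 to 435 CPM (median 333; log2 -4.24 ± 0.14). In vitamin D activation the 25-hydroxylase Cyp2r1 was at 14.971 to 30.7 CPM (median 20.4) in liver and 0.385 to 1.33 CPM (median 0.906) in kidney (log2 -4.60 ± 0.22). The 1α-hydroxylase Cyp27b1 was at 2.51 to 6.92 CPM (median 4.6) in kidney and 0 to 0.205 CPM (median 0.0999) in liver (log2 5.43 ± 0.35). The catabolic 24-hydroxylase Cyp24a1 was at 67.2 to 403 CPM (median 136) in kidney with no count in liver. The vitamin D receptor Vdr was at 213 to 347 CPM (median 276) against 0 to 0.209 CPM (median 0.0987). The plasma carrier Gc was at 6914 to 10339 CPM (median 8220.1) in liver against 9.9 to 23.9 CPM (median 12.3; log2 -9.18 ± 0.25). Miox, which opens inositol, was at 799.6 to 1172 CPM (median 978) in kidney against 0 to 0.32 CPM (median 0.101). Urate breakdown and the last step of vitamin C synthesis were liver genes: Uox was at 2502 to 4740.0 CPM (median 3651) with no count in any kidney. Gulo was at 535 to 864 CPM (median 746) against 0.0316 to 1.14 CPM (median 0.151; log2 -11.32 ± 0.50; -11.91 without A52). Of the 15 genes of this list 9 were at least 4-fold higher in liver and 5 in kidney, and adjusted p of those called here was at most 1.59e-08.

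**Figure D3:**
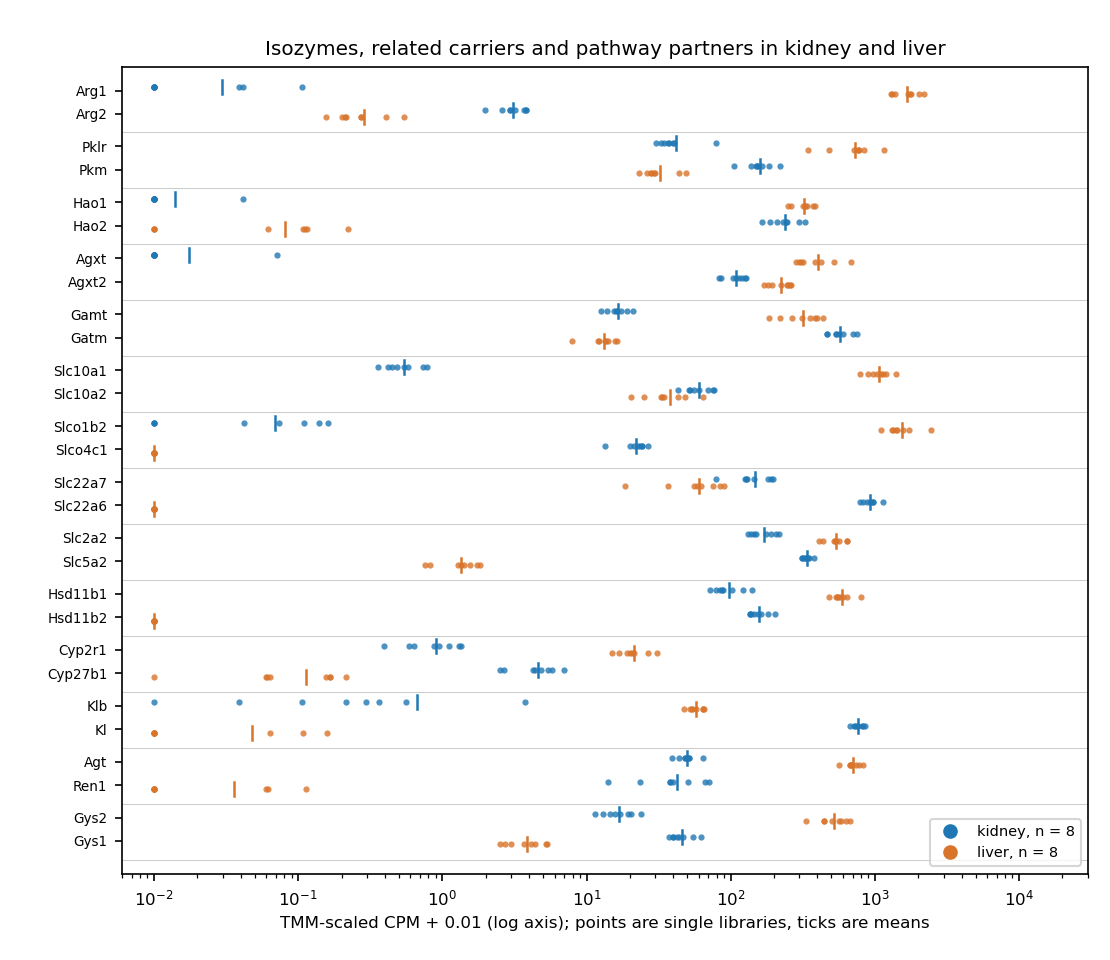
TMM-scaled CPM + 0.01 (log axis) of pairs of isozymes, related carriers and pathway partners; each point is 1 library (8 kidneys above, 8 livers below each line) and short bars are means. Arg1 and Arg2, Hao1 and Hao2 and Gamt and Gatm change sides, while the values of Slc10a2 overlap between the tissues.

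Of 10 genes of glucose production, 2 were at least 4-fold higher in kidney and 0 in liver, against 14.9% and 9.21% of all genes. With TMM 3 were called higher in kidney, 3 in liver and 4 were not called. The median log2 fold change was 0.25 with TMM and 1.003 with total counts only. Pck1, the pathway's cytosolic control point, was at 1478 to 5764 CPM (median 4187) in kidney and 752 to 6072 CPM (median 3446) in liver. It did not pass edgeR's test (adjusted p = 0.301). Glucose 6-phosphatase (G6pc) was at 357 to 621 CPM (median 520.3) and 83.5 to 939.9 CPM (median 375) (adjusted p = 0.132). Pyruvate carboxylase (Pcx) was at 709.9 to 905 CPM (median 824) and 366 to 1042 CPM (median 788) (adjusted p = 0.588). With total counts only these 3 were called higher in kidney (1.15, 1.35 and 0.86). The liver values of G6pc ran over a wider range than those of the kidney, with A53 highest and A54 lowest. Fbp1 was higher in liver with TMM (854 to 1154 CPM with median 1013 against 1286 to 2425 CPM with median 1579, log2 -0.67 ± 0.12; 0.09 with total counts only). The coactivator Ppargc1a, which drives mitochondrial genes, was at 62.9 to 86.4 CPM (median 66.5) in kidney and 6.61 to 14.8 CPM (median 10.8) in liver (log2 2.74 ± 0.19). Fbp2, the muscle form of the bisphosphatase, was at 5.49 to 11.9 CPM (median 7.8) and 0 to 0.266 CPM (median 0.0774; log2 6.25 ± 0.43). The largest adjusted p among these calls was 2.22e-04.

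Genes of glucose use and storage differed in both directions. Of 28 genes of glycolysis and glycogen, 8 were at least 4-fold higher in liver and 5 in kidney. Hk1, the hexokinase of most tissues, was at 51.955 to 124 CPM (median 79.8) in kidney against 2.45 to 7.04 CPM (median 5.91; log2 3.90 ± 0.22). Pyruvate kinase changed form, with Pklr at 343 to 1166 CPM (median 764) in liver against 30.5 to 79.3 CPM (median 37.1; log2 -4.16 ± 0.29) and Pkm at 105 to 220.4 CPM (median 153) in kidney against 23.1 to 49.1 CPM (median 28.7; log2 2.31 ± 0.16). Glycogen synthase was Gys2 in liver (333 to 674 CPM with median 537 against 11.3 to 23.8 CPM with median 16.3, log2 -4.95 ± 0.18) and Gys1 in kidney (37.5 to 61.9 CPM with median 43.3 against 2.52 to 5.33 CPM with median 3.91, log2 3.58 ± 0.19). Ldhb, the lactate dehydrogenase chain of oxidative tissues, was at 778 to 1009 CPM (median 877) in kidney and 2.24 to 7.03 CPM (median 3.68) in liver (log2 7.85 ± 0.19). Ldha was at 507 to 615 CPM (median 553) and 612 to 1528 CPM (median 1059.7) with overlap (log2 -0.83 ± 0.17; -0.08 and no call with total counts only). Per kilobase of exon (GENCODE M21), Pkm was at 31.7 ± 6.71 CPM in kidney and Pklr at 225.9 ± 75.55 in liver (SD, n = 8). Enzymes between these steps were mixed. The phosphofructokinase Pfkp was at 20.5 to 36.1 CPM (median 31.3) in kidney against 3.3 to 8.17 CPM (median 4.51; log2 2.63 ± 0.15), and the aldolase Aldoa was higher in kidney (log2 1.87 ± 0.12 with TMM and 2.63 with total counts only). Gapdh was at 1330.1 to 1772 CPM (median 1556) and 1429.8 to 2222 CPM (median 1626) and Gpi1 at 299 to 378 CPM (median 309) and 248 to 398 CPM (median 291), neither called with TMM (-0.09 and 0.08, adjusted p = 0.484 and 0.556) and both called higher in kidney with total counts only (0.66 and 0.83). Among the called genes, adjusted p was at most 7.22e-04.

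Of the 6 genes of ketone body synthesis and use, 2 were at least 4-fold higher in kidney and 1 in liver. Oxct1, the first enzyme of ketone body use, was at 979 to 1139 CPM (median 1048) in kidney and 4.28 to 13.2 CPM (median 6.66) in liver (log2 7.23 ± 0.20). Some metabolic genes were far from uniform over the kidneys. Cyp24a1, which inactivates vitamin D, was highest in A56 and A52 (403 CPM in A56 and 381 in A52, against 67.2 to 149 in the other 6), and Cyp4a14 too (68.6 and 66.4 against 11.0 to 40.7). Pdk4, the brake on pyruvate oxidation, was high in A58, A56 and A52 (141, 102 and 94.4 CPM against 14.2 to 42.7). Of 22 genes of fatty acid oxidation, 4 were at least 4-fold higher in liver (2 with total counts only) and 1 in kidney. Cpt2 did not pass the test (171 to 249 CPM with median 203 against 185 to 241 CPM with median 199, adjusted p = 0.873; 0.77 and called with total counts only). Acadm was higher in kidney with overlap (644 to 872 CPM with median 814 against 350.4 to 655 CPM with median 407, log2 0.89 ± 0.15). Fabp1, the fatty acid binding protein of liver, was at 1778 to 5793 CPM (median 3381) against 0 to 1.11 CPM (median 0.0623; log2 -14.53 ± 0.60, and -15.45 without A52). The genes called here had an adjusted p of at most 0.0021.

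**Figure D4:**
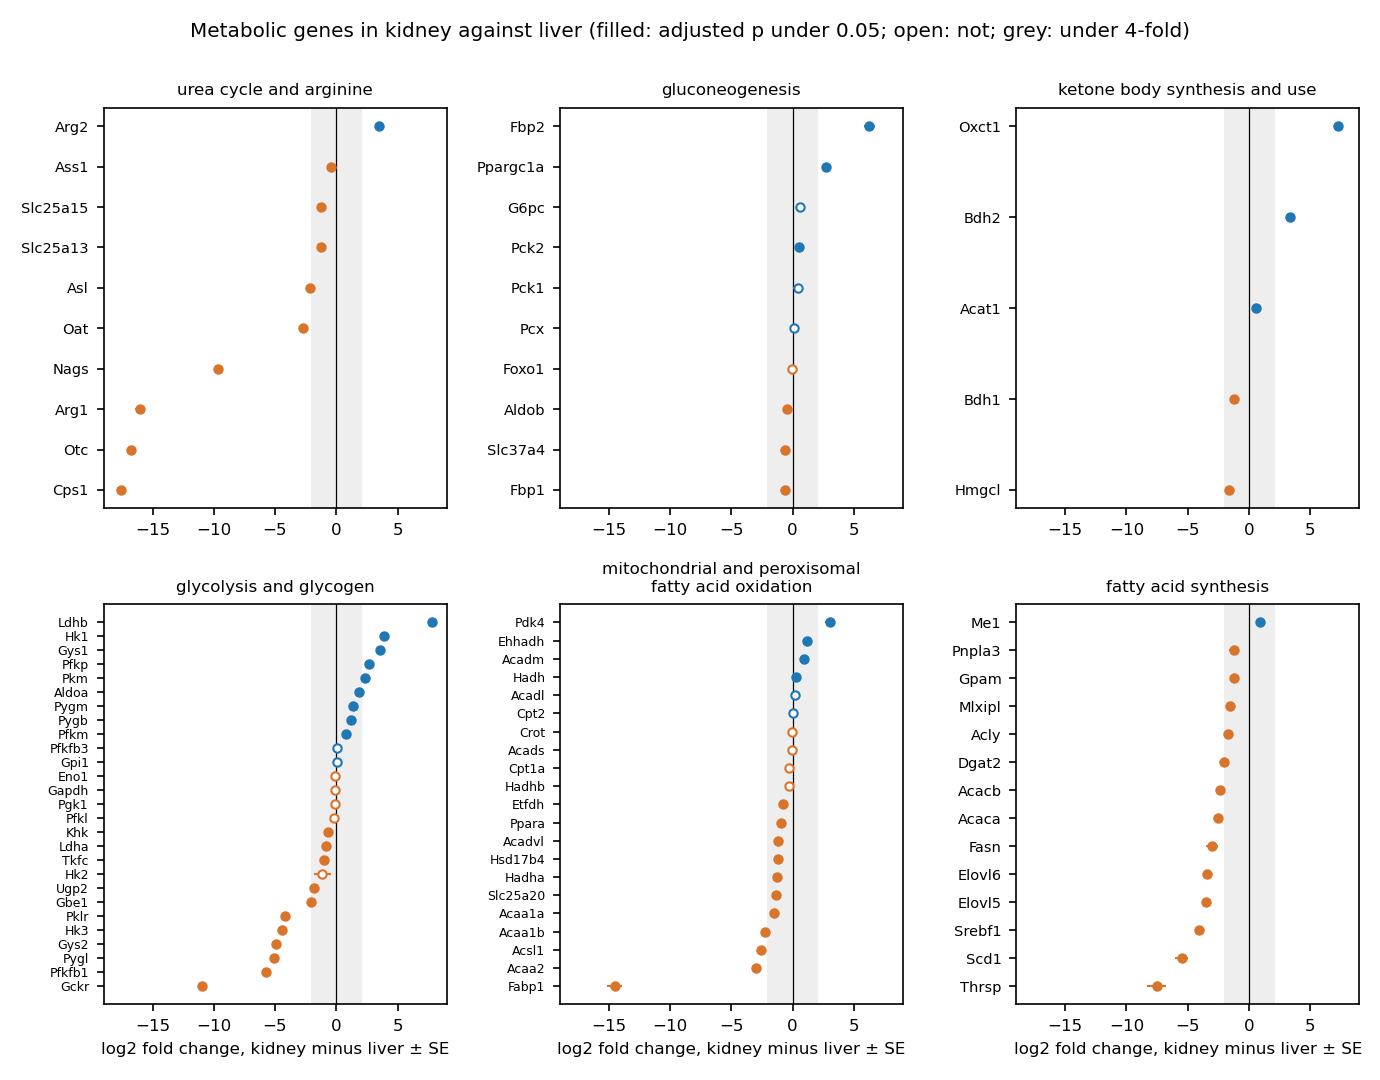
Log2 fold change, kidney minus liver (x axis, ± SE), of tested genes of 6 metabolic lists; filled points passed an adjusted p of 0.05, open points did not, and the grey band marks under 4-fold. Otc had no count in any kidney, so its point is a fitted value and no bound; gluconeogenesis lies mostly within the band, and 9 of 14 fatty acid synthesis genes lie at or past its liver edge.

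Fatty acid synthesis genes were higher in liver: of 14 tested, 9 were at least 4-fold higher there and 0 in kidney, with a median log2 fold change of -2.48. Scd1, the stearoyl-CoA desaturase, was at 7083 to 15128 CPM (median 8275) in liver and 89.4 to 2621 CPM (median 148) in kidney (log2 -5.49 ± 0.53). Thrsp, a lipogenic protein, was at 575 to 2372 CPM (median 923) against 1.35 to 112 CPM (median 3.45; log2 -7.52 ± 0.78). Srebf1, their transcriptional activator, was at 279.9 to 941 CPM (median 656) against 28.1 to 49.5 CPM (median 36.019; log2 -4.09 ± 0.18). Fatty acid synthase (Fasn) was at 510.2 to 1754 CPM (median 1247) in liver and 48.5 to 1959 CPM (median 83.6) in kidney (log2 -3.002 ± 0.48), and the kidney of A58, at 1959 CPM, lay above all 8 livers. The kidneys of A58 and A56 were the highest for Fasn, Scd1, Thrsp, Acaca and Elovl6, and they were also the ones with the most Ucp1 and Adipoq, whose part in these values was not tested. Without A56 and A58 the log2 fold change was -3.64 for Fasn (from -3.002), -6.17 for Scd1, -3.07 for Acaca (from -2.55) and -3.93 for Elovl6 (from -3.46), and 9 of 14 genes still passed 4-fold toward liver. Hk2, a hexokinase of muscle and fat, was at 26.3 CPM in the kidney of A58 and 0.253 to 3.43 in the others; it was not called over the 8 pairs (-1.15, adjusted p = 0.159) and was called lower in kidney without A58 (-1.78, adjusted p = 0.00314). Me1, the malic enzyme, was the list's single gene higher in kidney (561 to 763 CPM with median 641 against 215 to 1011 CPM with median 346, log2 0.87 ± 0.21), with overlap. Called genes here reached an adjusted p of at most 0.00189.

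**Figure D5:**
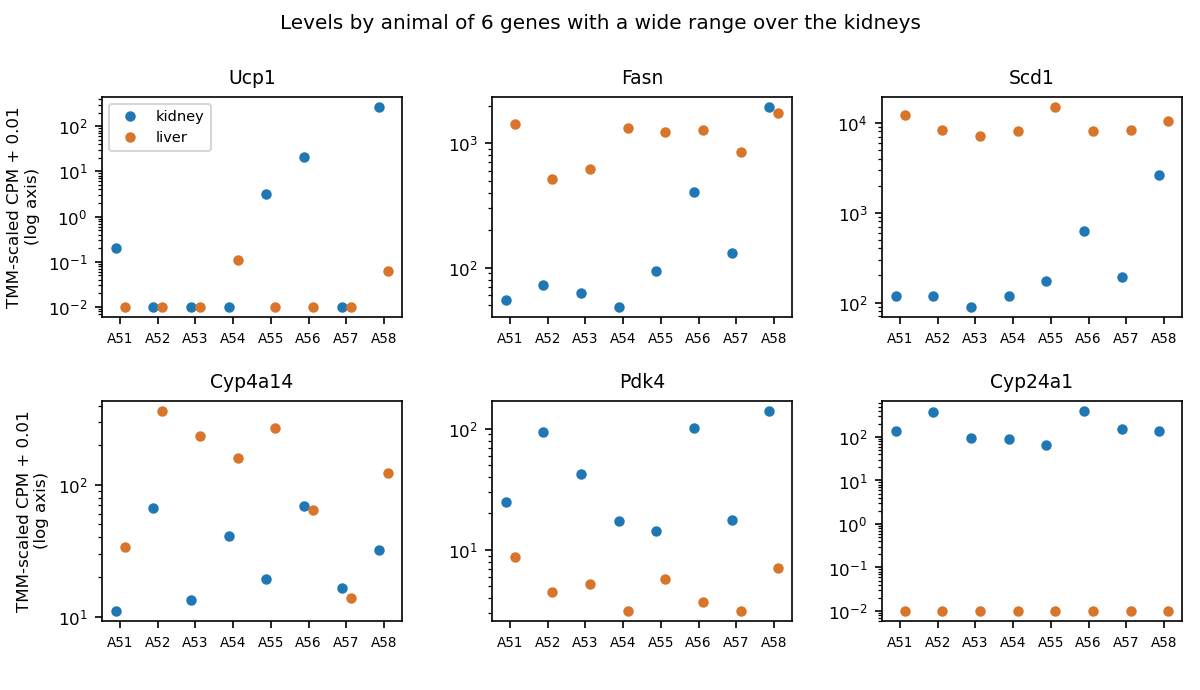
TMM-scaled CPM + 0.01 (log axis) of 6 genes in the kidney and the liver of each animal, A51 to A58. Among the 8 kidneys, Ucp1, Fasn and Scd1 are highest in A58 and A56, Cyp4a14 and Cyp24a1 in A52 and A56, and Pdk4 in all 3; every liver lies above every kidney for Scd1.

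Hormone systems that join the organs were divided between them. Angiotensinogen (Agt), the substrate, was at 567 to 829 CPM (median 687) in liver and 39.4 to 64.2 CPM (median 48.8) in kidney (log2 -3.83 ± 0.14). Renin (Ren1), which cuts it, was at 14.1 to 70.6 CPM (median 38.8) in kidney and 0 to 0.103 CPM (median 0) in liver (log2 10.47 ± 0.32). The converting enzyme Ace was a kidney gene (log2 6.85 ± 0.17). The co-receptors of endocrine FGFs parted in the same way: klotho (Kl), through which FGF23 acts, was at 667 to 849 CPM (median 756) in kidney against 0 to 0.149 CPM (median 0; log2 14.12 ± 0.36; 14.83 without A51). Klb, through which FGF21 acts, was at 47.4 to 65.6 CPM (median 55.8) in liver against 0 to 3.75 CPM (median 0.244), where A58 was the highest (log2 -7.30 ± 0.57; -8.06 without A58). The enzymes that convert glucocorticoids did too, with Hsd11b1 at 477 to 801 CPM (median 562) in liver and 71.5 to 141 CPM (median 87.4) in kidney (log2 -2.63 ± 0.15). Hsd11b2, which shields the mineralocorticoid receptor, was at 136 to 204 CPM (median 149.7) in kidney and no count in liver. The parathyroid hormone receptor Pth1r was at 479.9 to 681 CPM (median 562) in kidney against 14.1 to 22.9 CPM (median 19.3; log2 4.94 ± 0.15). The glucagon receptor Gcgr was at 329.6 to 511 CPM (median 466) in liver against 19.7 to 29.2 CPM (median 26.7; log2 -4.12 ± 0.16). Hepcidin (Hamp), the iron hormone, was at 801 to 2292 CPM (median 1102) in liver with 1 count over all kidneys. Igf1 was at 604 to 816 CPM (median 665) against 6.03 to 13.2 CPM (median 9.17; log2 -6.16 ± 0.17). The glucocorticoid receptor Nr3c1 did not pass the test (78.8 to 109.6 CPM with median 95.1 against 73.1 to 134 CPM with median 104, adjusted p = 0.554; -0.09 with TMM and 0.67, called, with total counts only). In all, 11 of 25 genes were at least 4-fold higher in liver (7 with total counts only) and 7 in kidney. With edgeR, the calls in this group had adjusted p-values up to 5.82e-08.

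All 30 plasma protein genes were at least 4-fold higher in liver, where they took 16.5 to 20.7% of counts against 0.0481 to 0.0832% in kidney. Apoa1, of high-density lipoprotein, was at 8883 to 21049.9 CPM (median 13136) in liver and 0.136 to 0.577 CPM (median 0.346) in kidney (log2 -15.26 ± 0.31). Transferrin (Trf) was at 17015 to 25701 CPM (median 19727) and 12.2 to 33.8 CPM (median 22.8; log2 -9.87 ± 0.27). Apob, which also packs lipoproteins in kidney, was closest (3518 to 6226 CPM with median 4959 against 174 to 348 CPM with median 240.4, log2 -4.35 ± 0.19). The acute phase gene Saa1 varied widely between livers, at 1446 CPM in A53 and 954 in A52 against 22.5 to 142 in the other 6, with 1 count over all kidneys. The largest adjusted p among these calls was 7.80e-11.

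Most members of a list of transcription factors of kidney and liver differed by at least 4-fold. Of 32 tested, 17 were at least 4-fold higher in kidney and 10 in liver, against 14.9% and 9.21% of all genes. The list was made of factors chosen for these organs, so its shares do not describe transcription factors at large. Hnf4a was at 560.1 to 720.5 CPM (median 629) in kidney and 337 to 1014 CPM (median 613) in liver (0.03 with TMM, adjusted p = 0.869); the value was 0.78 and called with total counts only, and -0.36 and called in the 3 pairs of batch 3. The bile acid receptor Nr1h4 (FXR) was within 4-fold (109 to 168 CPM with median 134 against 177 to 245 CPM with median 231, log2 -0.73 ± 0.11 with TMM and 0.03 with total counts only). Liver-sided were Cebpa (410.5 to 1184 CPM with median 1009.9 against 37.2 to 57.9 CPM with median 47.8, log2 -4.31 ± 0.17), the xenobiotic receptors Nr1i3 (CAR; 126 to 355 CPM with median 193 against 1.2 to 2.1 CPM with median 1.64, log2 -6.89 ± 0.19) and Nr1i2 (PXR; 81.5 to 136 CPM with median 105 against 3.55 to 7.53 CPM with median 4.12, log2 -4.52 ± 0.16), and Foxa3 (56.2 to 105 CPM with median 72.2 against 0 to 0.193 CPM with median 0.0596, log2 -10.02 ± 0.31). Kidney-sided were Pax2 (23.4 to 46.4 CPM with median 37.1) and Tfap2b (33.7 to 59.007 CPM with median 44.7), early factors of the nephron lineage with no count in any liver, and Hoxd8 (54.7 to 83.6 CPM with median 74.7) with 1 count over all livers. Among the called genes, adjusted p was at most 3.01e-05.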

How the data were processed

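Poly(A) RNA was sequenced from kidney and liver of 8 young control mice, 16 libraries of 23315718 to 27868848 counts. The deposited values are raw whole-number counts per gene; per the submitters' processing notes the build was GRCm39 and read quality was checked with FastQC 0.11.9, while aligner and counter are not given in the sources used here. Per the labels' protocols the library kit does not mark strand. Counts were analysed in R 4.3.3 with edgeR 4.0.16: filterByExpr by tissue, TMM, and a quasi-likelihood fit with tissue and animal, with Benjamini-Hochberg adjustment over 15577 genes and a threshold of 0.05. Kidney and liver were paired because each pair came from the same animal; deviations of the pairs from the tissue means correlated at -0.19 to 0.12. DESeq2 1.42.0, other scalings, no filter, batch subsets and leaving out each animal were the alternatives. Simulated counts for this comparison (15405 genes) held 96 genes changed by 2-fold and 98 by 4-fold, in either direction. Of these 94.8% and 100% were recovered, and 5.03% of calls were false. Far fewer genes changed there than the 72.3% called here, so that false share does not carry over to the real comparison. A floor of 3 counts over a tissue's 8 libraries was used only for folds given as at least a value and for medians given with genes at their bound. All other log2 fold changes and medians are edgeR's fitted values, also for genes without a count in a tissue. Lengths came from GENCODE M21 exons.

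Named were the members of the isozyme pairs, up to 3 called genes of each list in each direction with the largest change and at least 10 CPM in the higher tissue, the least changed member of each list with at least 10 CPM in both, and the 5 largest changes each way above 100 CPM. Other named genes were chosen after their values were seen. The members and lists were chosen with earlier results of these data known. The other tissues, ages, treatments and cohorts of the series were not used here, and some genes are not reported here.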

Additional observations from a re-analysis of the deposited data

Results flagged for a closer look

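In 26 of 288 gene and tissue sets of 8 libraries with a mean of at least 10 CPM, 1 library lay farther from its nearest neighbour than Dixon's 95% critical value for 8 values allows on the log2(CPM + 0.5) scale; chance alone gives about 1 set in 20. Each is given as the TMM-scaled CPM of that library beside the range of the other 7. In the kidney of A52 these were Gpi1 (highest, 378 against 299 to 324), Pklr (highest, 79.3 against 30.5 to 40.3) and Slc2a5 (highest, 172 against 95.8 to 126). In the kidney of A53 this was Hbb-bs (highest, 178 against 8.17 to 30.6). In the kidney of A54 this was Pax2 (lowest, 23.4 against 34.7 to 46.4). In the kidney of A56 these were Aqp1 (lowest, 669 against 809 to 915) and Pck1 (lowest, 1478 against 3053 to 5764). In the kidney of A57 these were Slc34a1 (highest, 6401 against 4499.7 to 5312) and Slco4c1 (lowest, 13.5 against 19.998 to 26.8). In the kidney of A58 this was Acaca (highest, 208 against 15.5 to 52.4). In the liver of A52 these were Aldh2 (lowest, 1008 against 2508 to 3173), Cebpa (lowest, 410.5 against 939 to 1184), Ces1c (highest, 3578 against 2847 to 3109.9), Igf1 (highest, 816 against 604 to 682), Pcx (lowest, 366 against 700.4 to 1042) and Slc3a2 (lowest, 30.005 against 46.9 to 68.5). In the liver of A55 these were Acadm (highest, 655 against 350.4 to 464), Cdo1 (highest, 2937 against 1087 to 1596), Gsta3 (highest, 3895 against 1264 to 2008), Me1 (highest, 1011 against 215 to 438), Slc37a4 (highest, 818 against 342 to 472), Tdo2 (highest, 2623 against 1027 to 1526), Thrsp (highest, 2372 against 575 to 993) and Ugt2b1 (lowest, 349 against 521 to 686). In the liver of A56 this was Nr1h4 (lowest, 177 against 215 to 245). In the liver of A58 this was Gatm (lowest, 7.93 against 11.964 to 16.3). The kidney of A58, set apart for Acaca, was also the one with the most Ucp1 (272 CPM), and the part of adipose tissue in that value was not tested. Acaca differed by -2.55 on the log2 scale over the 8 pairs and by -3.07 without A56 and A58.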

How the results depend on the processing

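Every count of genes, over all genes and over the 32 lists and families, was recomputed under each alternative, and so was each gene named. Leaving the animal out as a block (no replicate block) gave 5940 genes called higher in kidney and 5707 in liver, with 2291 and 1444 at least 4-fold different, moved no other count by more than 1.5 times and changed the call of no named gene. DESeq2's size factors gave 5945 and 5281 called, its Wald test 5989 and 5335, and no filter on low counts 7161 and 5976. Scaling by total counts only gave 10254 and 2491 called. With that scaling the number at least 4-fold higher in liver was 0 for glucose carriers (1 with TMM), 2 for fatty acid oxidation (4), 7 for the hormone axis (11) and 3 for aldehyde dehydrogenases (5), and the number higher in kidney was 10 for ABC genes (6), 6 for Ugt (3), 2 for Fmo (1) and 6 for Akr (3). With that scaling the log2 fold change turned from negative to positive for Abcc2 (0.67), Acot8 (0.74), Anpep (0.69), Aqp11 (0.29), Ass1 (0.33), Atp6v0d1 (0.72), Fbp1 (0.0873), Gapdh (0.66), Nr1h4 (0.0259), Nr3c1 (0.67) and Slc37a4 (0.13). In the 3 pairs of batch 3, 4 Gst genes and 5 Akr genes were at least 4-fold higher in kidney (2 and 3 over all pairs), and Hnf4a was at -0.36. Leaving out 1 animal at a time gave 5702 to 5998 genes called higher in kidney and 4974 to 5492 in liver, and no count moved by more than 1.5 times. Leaving both A56 and A58 out, an alternative chosen after seeing the data, moved no count by that much either. Genes with under 3 counts over a tissue's 8 libraries could not be measured there at this depth.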

Other observations

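Smaller families within the Slc genes counted above gave these values. Of 10 Slc7 genes tested, which carry amino acids, 7 were at least 4-fold higher in kidney and 1 in liver, against 14.9% and 9.21% of all genes. Of 13 Slc16 genes, the monocarboxylate family, 4 were higher in kidney and 0 in liver. The Slc17 family, which includes phosphate and urate carriers, had 2 of 7 higher in kidney and 4 in liver, and took 0.147 to 0.176% of kidney counts and 0.0254 to 0.0427% of liver counts. The Slc38 family had 1 of 9 higher in kidney and 2 in liver, and took 0.282 to 0.601% of liver counts against 0.0403 to 0.046% of kidney counts. Slc38a3 and Slc38a4 made up most of that liver share: without them the family summed to 238.2 to 282.8 CPM in kidneys and 241.7 to 575.7 CPM in livers, and 1 of 7 was higher in kidney and 0 in liver. Outside the carriers, the Nat8 family of N-acetyltransferases had 5 of 8 higher in kidney and 1 in liver. Its summed level went the other way, at 1518 to 2430 CPM in livers and 476.8 to 785.7 CPM in kidneys, without overlap.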
